A study of Mus musculus with 18 samples.

Results

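Shared distal H3K27ac peaks are stretches of the genome that carried the active chromatin mark H3K27ac in the hippocampus of both genotypes studied and carried no peak of the promoter mark H3K4me3 in either. The members were chosen by measured values, the overlap of deposited peak calls: they are peaks of the wild-type (WT) H3K27ac list that overlapped at least 1 bp of an H3K27ac peak of the conditional knockout (cKO) and no WT or cKO H3K4me3 peak. The rule gave 849 of the 13006 WT H3K27ac peaks, or 6.53%. Of the other WT peaks, 10226 (78.6%) were shared with the cKO and touched H3K4me3, and 1164 (8.95%) were distal with no cKO peak over them. A further 4987 peaks of the cKO list were distal and had no WT peak over them.

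The tissue was hippocampus of C57BL/6 mice, either wild type or carrying a conditional knockout of Arid1a, with no other treatment named. Chromatin immunoprecipitation sequencing (ChIP-seq) was done at 3 weeks of age with 1 library per mark and genotype and 1 input library per genotype, so no difference in a histone mark below has a replicate check. RNA was sequenced from 2 WT and 2 cKO libraries at postnatal day 21 (P21) and at embryonic day 16.5 (E16.5) from 3 of each genotype, which the series describes as biological replicates. The labels name neither the Cre driver nor the cells in which Arid1a was deleted, and pooling of animals is not described in them. The tissue is bulk, so fewer cells of a type and less RNA or less of a mark per cell cannot be told apart.

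Acetylation of histone H3 at lysine 27 is laid down by the acetyltransferases CBP and p300 at active enhancers and promoters, whereas trimethylation at lysine 4 is concentrated at active promoters. H3K27ac away from H3K4me3 is therefore the usual first sign of an enhancer, a stretch of DNA that raises transcription of a gene that may lie far away. The ARID1A protein belongs to the BAF (SWI/SNF) remodelling complex, binds DNA there, and the complex moves nucleosomes and is known to work at many enhancers. H3K27me3, the mark of Polycomb repressive complex, is usually absent where H3K27ac is present because both marks use the same lysine.

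The absence of an H3K4me3 peak did not place every peak far from a promoter. An H3K4me3 peak of either genotype lay within 2 kb of 223 of the 849 (26.3%) and within 500 bp of 117 (13.8%), and 24 lay within 100 bp. A gene start of the RefSeq promoter table (GRCm38.p6), which does not hold every gene, lay within 2 kb of 103 peaks (12.1%). Another 543 peaks (64.0%) were over 2 kb from both by this table, and some of these can lie near a start that it lacks. Peaks that had no start distance, named with the RNA counts below, could enter neither the 103 nor the 543. The 250 bases upstream of an annotated start were overlapped by 25 of the peaks, through 27 windows of 24 genes, 10 of them with names other than model names.

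The following windows, each with over 100 bases inside a peak, show the DNA at such starts in Zmynd8, Cyth1 and Trak1, which had 13, 5 and 5 peaks, and in Phyhd1, whose RNA was higher in cKO. Each is the 250 bases 5′ of a RefSeq start, read on the gene's strand, with the bases inside the shared distal peak in capitals. The Zmynd8 windows lay at chr2:165880171-165880420 and chr2:165882279-165882528 on the minus strand, the Cyth1 window at chr11:118212732-118212981 on the minus strand, the Trak1 window at chr9:121382544-121382793 on the plus strand and the Phyhd1 window at chr2:30266471-30266720 on the plus strand.
Zmynd8, start at the peak of higher WT fold: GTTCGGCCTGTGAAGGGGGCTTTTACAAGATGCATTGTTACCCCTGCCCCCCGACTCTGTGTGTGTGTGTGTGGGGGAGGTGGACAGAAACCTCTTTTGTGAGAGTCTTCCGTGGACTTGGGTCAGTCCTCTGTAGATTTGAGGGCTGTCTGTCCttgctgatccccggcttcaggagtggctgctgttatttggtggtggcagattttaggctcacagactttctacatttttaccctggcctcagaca
Zmynd8, start at the peak of lower WT fold: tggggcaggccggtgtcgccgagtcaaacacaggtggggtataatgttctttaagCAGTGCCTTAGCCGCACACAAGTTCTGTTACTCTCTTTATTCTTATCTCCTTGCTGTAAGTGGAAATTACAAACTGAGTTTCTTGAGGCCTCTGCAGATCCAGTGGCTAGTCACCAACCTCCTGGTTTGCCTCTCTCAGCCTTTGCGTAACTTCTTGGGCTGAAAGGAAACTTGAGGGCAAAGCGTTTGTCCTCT
Cyth1: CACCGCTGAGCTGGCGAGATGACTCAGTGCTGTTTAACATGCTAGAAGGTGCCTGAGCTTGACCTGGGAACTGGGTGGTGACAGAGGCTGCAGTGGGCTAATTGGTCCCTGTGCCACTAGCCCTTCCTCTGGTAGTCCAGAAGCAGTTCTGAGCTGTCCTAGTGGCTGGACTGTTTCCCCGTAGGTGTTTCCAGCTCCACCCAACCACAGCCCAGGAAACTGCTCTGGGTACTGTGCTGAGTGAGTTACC
Trak1: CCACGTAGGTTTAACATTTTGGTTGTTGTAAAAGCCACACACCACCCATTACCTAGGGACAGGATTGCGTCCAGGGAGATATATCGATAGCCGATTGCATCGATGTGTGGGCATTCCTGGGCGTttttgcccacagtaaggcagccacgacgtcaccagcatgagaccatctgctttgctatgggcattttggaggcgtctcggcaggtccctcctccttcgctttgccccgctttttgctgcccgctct
Phyhd1: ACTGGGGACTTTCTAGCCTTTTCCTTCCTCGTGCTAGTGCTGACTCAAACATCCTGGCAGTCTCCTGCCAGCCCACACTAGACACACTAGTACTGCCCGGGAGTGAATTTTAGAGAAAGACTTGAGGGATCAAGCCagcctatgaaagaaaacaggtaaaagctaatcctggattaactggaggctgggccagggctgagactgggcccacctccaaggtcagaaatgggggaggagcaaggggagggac

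The Cyth1 window lay wholly inside its peak, whereas the Phyhd1 peak ended 5′ of this start and covered 136 of the 250 bases. The Cyth1 and Phyhd1 windows each held the letters TGANTCA, the core of AP-1 sites, in both cases inside the peak. The Trak1 window held CATCTG, an E-box, in the stretch outside its peak. Counted on both strands and anywhere in the window, TGANTCA stood in 4 of the 27 windows (14.8%) against 6.75% of all 32851 windows of this length, and CATCTG in 7 (25.9%) against 14.4%. The E-box CAGCTG stood in 3 (11.1%) against 13.0%, and GGGCGG, the core of SP1 sites, in 6 (22.2%) against 32.7%. The median number of CpG dinucleotides per window was 4, and 6 over all windows. These letters are a description of few windows, and no factor was measured at them.

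As deposited by the authors, each peak has a summit pileup, the height of overlapping fragments, and a fold enrichment, the pileup over the level expected from input nearby. The WT peaks were short, with a median of 281 bp (188 to 1236), and covered 280 kb in all. Their median WT fold enrichment was 5.0 (2.67 to 10.5). The cKO peaks over them had a median length of 385 bp and a median fold of 5.62 (2.72 to 17.5). Where 2 cKO peaks lay over a WT peak, which held for 51 members, the stronger was used. Conversely, 92 members shared a cKO peak with another member, so their cKO values are not separate.

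The cKO value was higher than the WT value in 570 of 849 peaks (67.1%) by fold enrichment, with a median ratio of 1.13 (quartiles 0.931 and 1.38). By summit pileup the direction was the other way, with a median ratio of 0.967 (quartiles 0.843 and 1.16). The ChIP tag totals were close, 19291198 for WT and 19288471 for cKO, and each library was compared with its own input of 17876653 and 18301652 tags. Pileups are scaled to that input, so a pileup ratio of about 1.02 is the same number of fragments in both libraries. The fold and pileup values come from the calls by which the peaks were chosen, so they are given as a description with no test. Summits of the paired peaks lay a median of 115 bp apart and within 200 bp for 591 peaks (69.6%). The cKO peak was the longer one in 571 cases and covered the whole WT peak in 263.

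The ratio was not the same at all distances from promoters. Members within 500 bp of H3K4me3 had a median fold ratio of 1.32 and a pileup ratio of 1.07. From 500 bp to 2 kb these were 1.2 and 1.02, from 2 to 10 kb 1.11 and 0.964, and from 10 to 50 kb 1.11 and 0.955. Beyond 50 kb they were 1.05 and 0.958. Both scales thus had their highest medians next to H3K4me3. The pileup median was at the ratio of equal fragment numbers from 500 bp to 2 kb and fell below 1 from 2 kb outward. The rule checked only the WT peak against H3K4me3, so the cKO peak over a member nearby can itself reach the H3K4me3 site. Fold and pileup of a cKO peak are those at its own summit. Median cKO lengths were 452 bp within 500 bp and 342.5 bp beyond 50 kb. The part of this order that comes from the pairing was not tested. WT H3K27ac peaks that were shared and touched H3K4me3 had a median WT fold of 5.53, a median cKO fold of 8.26 and a median ratio of 1.45.

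**Figure D1:**
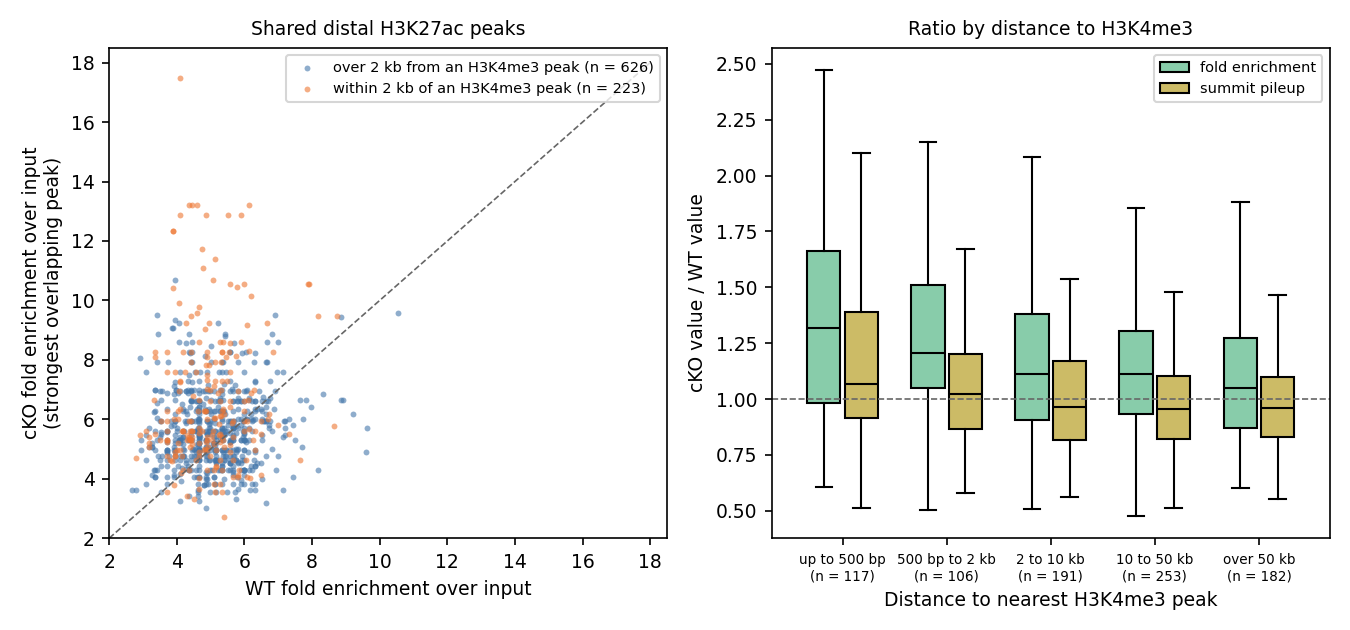
Left, cKO against WT fold enrichment over input for the 849 shared distal H3K27ac peaks, coloured by whether an H3K4me3 peak lay within 2 kb; the dashed line marks equal values. Right, boxes (median and quartiles, whiskers to 1.5 times the quartile range, points beyond not drawn) of the cKO to WT ratio by distance to H3K4me3. The median fold ratio ran from 1.32 within 500 bp to 1.05 beyond 50 kb, and the pileup ratio from 1.07 to 0.958. The distance is that of the WT peak, and a cKO peak can itself reach H3K4me3.

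The strongest WT peak was in Zbtb16, which encodes a BTB zinc-finger transcription factor, at chr9:48723893-48724477, with a fold of 10.5 in WT and 9.58 in cKO. A second Zbtb16 peak, at chr9:48736573-48737525, had 9.22 and 6.18. In Gfod1 the peak at chr13:43230628-43231653 had 9.63 in WT and 5.71 in cKO. A peak at chr18:69128401-69128741, inside no gene of the RefSeq table, had 9.60 and 4.89. Of the 10 strongest WT peaks, only those near Atp23 (8.86 and 9.46) and in Klf13 (8.74 and 9.49) had the higher fold in cKO. Peaks ranked on their WT values tend to be lower in any second library, so this order shows no change.

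The strongest cKO values lay near H3K4me3. The highest was 17.5, against 4.09 in WT, at chr2:30659199-30659826, which was 120 bp from an H3K4me3 peak and inside the span of a lncRNA model. Ubb, a polyubiquitin gene, also had such a peak. It lay at chr11:62551281-62551484, 1 bp from H3K4me3, and had a fold of 5.89 in WT and 12.9 in cKO. All 10 strongest cKO values were within 2 kb of H3K4me3. Some of them are 1 cKO peak over several members, such as a 3706 bp peak with a fold of 13.2. Peaks ranked on their cKO values also tend to be lower in any second library, so the distance to WT here shows no change.

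At the other end, the ratio was lowest at chr18:69125909-69126324, with 6.65 in WT and 3.17 in cKO, although the pileup there was 17.6 and 18. A peak in Dpf1, a subunit of the neuronal BAF complex, had 5.40 and 2.72 at chr7:29313799-29314269 and a pileup of 17.6 and 18. In Dnm1, which encodes the synaptic vesicle GTPase dynamin, the peak at chr2:32342931-32343273 had 8.18 and 4.28, and its pileup was also lower, 28.7 and 16.1. The lowest ratios thus held both peaks in which the pileup also differed and peaks in which it did not.

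The edge of the rule runs close to some members. The smallest overlap was 1 bp, at chr15:98813025-98813461 (fold 5.89 in WT and 5.29 in the cKO peak), and the nearest peak left out missed a cKO peak by 1 bp (chr17:24495943-24496154, WT fold 4.74). On the other side, a shared peak left out because it touched H3K4me3 by 7 bp had a WT fold of 5.88 (chr17:8508550-8508816). In all, 181 members were covered by cKO peaks over less than 50% of their length, and 80 of the 1164 WT-only distal peaks lay within 100 bp of a cKO peak.

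H3K27me3, which the rule did not use, was rare on these peaks. No WT H3K27me3 peak overlapped any of the 849 (Wilson 95% interval up to 0.450%). A cKO H3K27me3 peak overlapped 6 of them (0.707%, interval 0.324% to 1.53%). Of the shared peaks at H3K4me3, 3 overlapped WT and 459 (4.49%) overlapped cKO H3K27me3. Among WT-only distal peaks the counts were 0 and 6 (0.515%). The cKO H3K27me3 list was itself longer, 15659 peaks against 4124, and with 1 library per genotype the difference was not tested. These intervals cover counting error only.

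Among the 6 peaks with both marks, 2 were near the same gene. Neurod2, a neuronal bHLH transcription factor, had 2 of them downstream of the gene, at chr11:98317480-98317707 and chr11:98318310-98318825. Their H3K27ac folds were 4.87 and 4.88 in WT and 4.96 and 5.29 in cKO, and the cKO H3K27me3 peaks over them had folds of 5.97 and 6.75. Others lay singly near Ddn, which encodes the postsynaptic protein dendrin, and near Endov and Calcoco1. The H3K27me3 peak covered at least 50% of the H3K27ac peak in 3 of the 6. Neurod2 RNA at P21 was 253 and 234 CPM in WT and 148 and 197 in cKO, which do not overlap but missed the threshold (log2 change -0.50, SE 0.15, edgeR adjusted p = 0.0852).

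Each peak was next linked to every named gene whose span it overlapped, or else to the nearest gene edge within 50 kb. By this rule 563 peaks (66.3%) lay inside a named gene, 199 were linked to a neighbour and 87 had no link, and 474 genes were linked. Inside 2 or more named genes lay 11 peaks, and 1 of them was linked to many overlapping Pcdhga, Pcdhgb and Pcdhgc genes. The 474 genes thus do not each have a peak of their own. A link is a position and no measurement of contact. By all RefSeq spans, 565 peaks (66.5%) were in a protein-coding gene, 93 (11%) only in a lncRNA and 189 (22.3%) in none. Host genes with a known strand were long, with a median of 80.5 kb against 18.2 kb over all 20243 genes in the table. Of 410 pairs of a peak and such a host gene, 125 lay in the first, 140 in the middle and 145 in the last of 3 equal stretches from the gene's start.

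Peaks were not evenly placed along the genome. Chromosomes 2 (83 peaks) and 11 (81) held the most. Chromosome 18 held 58, which was 12.1% of its WT H3K27ac peaks against 6.53% over the genome, and 21 of these were in Tcf4. The X chromosome held 1 of 146 WT peaks (0.685%). Neighbouring peaks were joined into groups where the gap was short (the widest gap joined was 12.1 kb and the narrowest not joined 12.8 kb), which gave 570 groups, of which 423 held a single peak. The 60 groups of 3 or more held 252 peaks (29.7%).

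The largest groups differed in kind. The Zbtb16 group had 13 peaks over 22.1 kb (chr9:48723091-48745197). In Tcf4, which encodes an E protein that pairs with neuronal bHLH factors, 11 peaks lay in 25.8 kb (chr18:69559797-69585547). The zinc-finger gene Klf13 had 9 over 19.1 kb (chr7:63893471-63912546). In Zmynd8, a reader of acetylated and methylated histones, 8 peaks lay in 14 kb (chr2:165873559-165887578). Between the nuclear lncRNA genes Malat1 and Neat1, 8 peaks lay in 17.8 kb (chr19:5806035-5823840). Dagla, an endocannabinoid enzyme gene, also had 8 over 13.0 kb (chr19:10287872-10300835), and a group of 6 in Zbtb20 was tighter still at 4.92 kb.

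By gene, Tcf4 had most with 21 peaks, followed by Zbtb16 with 14, Zmynd8 with 13, Klf13 with 10 and the methionine sulfoxide reductase gene Msra with 9. Arhgap39, a GTPase-activating protein, Dagla, which makes an endocannabinoid, and Zbtb20, a zinc-finger factor needed for hippocampal pyramidal neurons, had 8 each. Malat1 had 7, all upstream of its start on the Neat1 side, and the guanine nucleotide exchange factor gene Arhgef10 had 6. Of the 474 linked genes, 335 had 1 peak, 69 had 3 or more and 21 had 5 or more.

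Zmynd8 had the highest median pileup ratio of these 10 genes. All 13 of its peaks had a higher fold in cKO, from a median of 4.77 in WT to 8.08 in cKO, with a median ratio of 1.65, and the pileup was higher in 11 of 13 (median ratio 1.72). The cKO peaks at its 8-peak group had folds of 8.08 to 11.7, against 3.35 to 7.90 in WT, and 10 of the 13 lay within 2 kb of H3K4me3. The Malat1 peaks had a median of 4.65 in WT and 6.89 in cKO, with a higher fold and pileup in 7 of 7, and 5 of them were within 2 kb of H3K4me3. Neighbouring members repeated the same cKO fold, 8.08 and 10.7 in Zmynd8 and 6.89 and 12.9 in Malat1, as where 1 cKO peak covers several. The counts for these genes are thus not all of separate cKO peaks. Zbtb20 had 4.81 and 7.29, with the pileup higher in 7 of 8 and no H3K4me3 peak within 2 kb. A Malat1 peak (pileup 12.05 and 12.33) and a Zbtb20 peak (16.68 and 17.08), counted here as higher, had the ratio of equal fragment numbers.

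In the other genes the 2 scales gave less. Tcf4 had medians of 5.33 in WT and 5.95 in cKO, with the fold higher in 14 of 21 and the pileup in 16. The 16 include pileups of 15.75 and 16.13, which is the ratio of equal fragment numbers. Zbtb16 had 5.19 and 7.32, but its pileup was higher in 7 of 14, with a median pileup ratio of 0.984. Its 7 likewise include a peak with 13.9 and 14.23. Klf13 had 4.44 and 6.26 with a pileup ratio of 0.981, Dagla 4.83 and 5.47 with 0.921, and Arhgef10 5.52 and 6.61 with 0.935. Msra had 4.46 and 6.98 with 1.12, and Arhgap39 5.50 and 7.12 with 1.21. Within 2 kb of H3K4me3 lay 12 of the 21 Tcf4 peaks, 6 of the 10 Klf13 peaks and 3 of the 8 Dagla peaks. Zbtb16, Msra, Arhgap39 and Arhgef10 had none there.

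**Figure D2:**
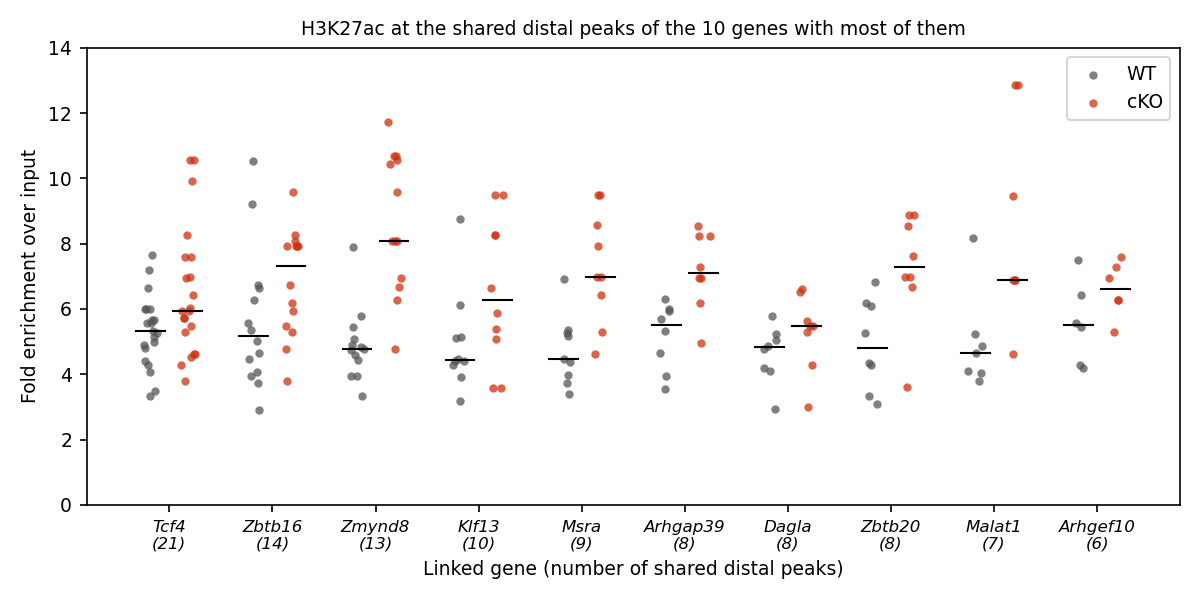
H3K27ac fold enrichment over input at each shared distal peak of the 10 genes with most of them, in the WT and the cKO library; each point is 1 peak, the bar is the median and the number in brackets counts the peaks. Zmynd8 medians were 4.77 and 8.08, Tcf4 medians 5.33 and 5.95. Points at the same cKO height can be 1 cKO peak over several WT peaks.

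The RNA at P21, the age of the ChIP-seq, was tested over the whole table with edgeR's quasi-likelihood test and Benjamini-Hochberg adjustment at 0.05. Levels are in CPM, counts scaled to a common library size, and SE is an approximate standard error of a log2 change of cKO over WT. Arid1a itself, which had no shared distal peak, was at 215 and 205 CPM in WT and 110 and 89.2 in cKO (log2 change -1.08, SE 0.13, adjusted p = 0.00507). At E16.5 it was at 262, 282 and 285 in WT and 180, 175 and 176 in cKO (log2 change -0.64, SE 0.06, edgeR adjusted p = 0.0320). The E16.5 call was lost when any 1 library was left out, and when replicate number was added to the fit. Transcript remained in the cKO at both ages. The P21 libraries held 20089631 to 20332148 estimated counts each and the E16.5 libraries 17662335 to 19760764.

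By edgeR none of the 10 genes with most shared distal peaks passed the test at P21. Tcf4 was at 439.9 and 484 CPM in WT and 425 and 446 in cKO (log2 change -0.08, SE 0.11, edgeR adjusted p = 0.676), and the groups overlapped. Zmynd8, whose 13 peaks all had the higher fold in cKO, was at 132 and 147 in WT and 141 and 139.8 in cKO (log2 change 0.01, SE 0.11, edgeR adjusted p = 0.973), both cKO values between those of WT. Klf13 was at 312 and 289 in WT and 275 and 299 in cKO. Levels of Klf13, Msra, Arhgap39 and Dagla overlapped between genotypes.

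The other 4 of the 10 genes did not overlap between genotypes, as held for 56.1% of all genes, and missed the threshold in edgeR. Zbtb16 was at 86.4 and 93.0 CPM in WT and 99.5 and 102 in cKO (log2 change 0.17, SE 0.10, edgeR adjusted p = 0.360). Zbtb20 was at 345 and 349 CPM in WT and 271 and 267 in cKO (log2 change -0.37, SE 0.10, edgeR adjusted p = 0.0685). Malat1 was at 454 and 551 in WT and 657 and 679 in cKO (log2 change 0.41, SE 0.12, edgeR adjusted p = 0.0894). Arhgef10 was at 40.2 and 43.0 in WT and 33.6 and 31.0 in cKO (log2 change -0.36, SE 0.11, edgeR adjusted p = 0.0988). DESeq2 called Zbtb20 (adjusted p = 0.00678) and Malat1 (adjusted p = 0.0181), and edgeR called both with no filter on low counts (adjusted p = 0.0402 and 0.0409). Without cKO replicate 1, edgeR called Zbtb20, Malat1 and Arhgef10 (adjusted p = 0.0329, 0.0369 and 0.0371). At a size of 2 libraries per genotype a p that misses the threshold does not show that the levels were equal.

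**Figure D3:**
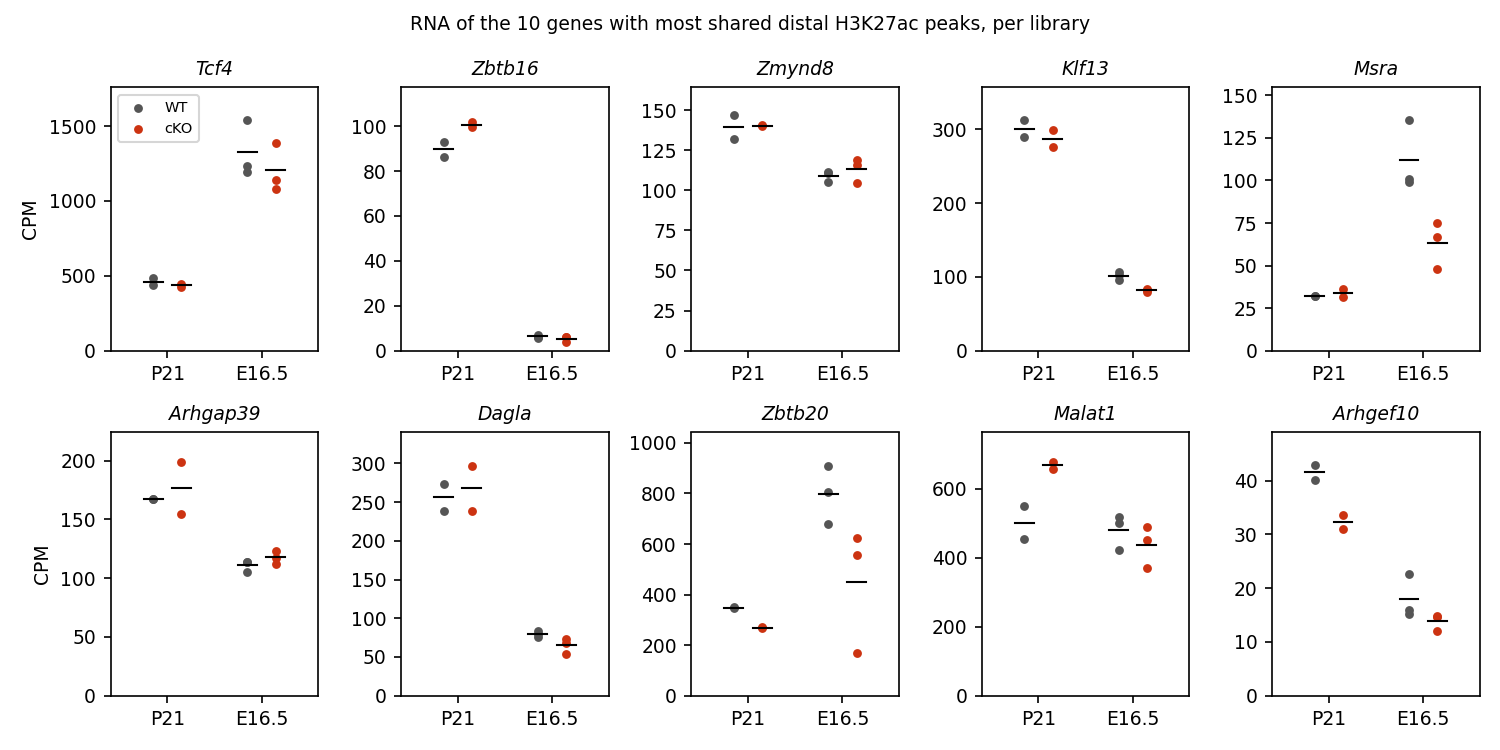
RNA of the 10 genes with most shared distal H3K27ac peaks in CPM at P21 and E16.5, each axis starting at 0; each point is 1 library and the bar is the mean. WT and cKO differ little for Tcf4, Zmynd8 and Klf13 at P21, and the 3 E16.5 cKO libraries of Zbtb20 range from 168 to 622.

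The levels of these genes between the ages can be set side by side, though each age was fitted alone. Zbtb16 was at 5.70 to 7.05 CPM in the E16.5 WT libraries and 86.4 and 93.0 in those of P21. Tcf4 was at 1193 to 1542 in WT at E16.5. Msra at E16.5 was at 101, 99.3 and 135 in WT and 48.1, 75.3 and 66.6 in cKO, which do not overlap (log2 change -0.82, SE 0.20, edgeR adjusted p = 0.151). Zbtb20 at E16.5 was at 806, 679 and 909 in WT and 168, 622 and 557 in cKO (log2 change -0.83, SE 0.47, edgeR adjusted p = 0.352). One cKO library was thus far below the other 2.

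Of the 474 linked genes, 445 passed the filter on low counts at P21. By edgeR, 13 were higher in cKO (2.92%) against 2.81% of all 17407 genes tested, and 24 were lower (5.39%) against 3.91%. The share higher was near the background and the share lower somewhat above it. Groups did not overlap for 268 linked genes (60.2%) against 56.1% of all genes. The median log2 change was -0.05, against 0.01 over all genes. At an unadjusted edgeR p under 0.05, 50 of the 445 were higher and 98 lower, against 2036 and 2295 of all 17407 genes. Linked genes were more abundant than most, with a median of 83.9 CPM against 14.8.

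Genes linked to the other classes of H3K27ac peak, which share genes with this set, give a scale for these shares. WT-only distal peaks were linked to 636 tested genes, of which 14 were higher and 60 (9.43%) lower. The cKO-only distal peaks were linked to 1857, with 62 higher and 111 (5.98%) lower. Shared peaks at H3K4me3 were linked to 6936, with 107 higher and 278 (4.01%) lower. The differences between these overlapping sets were not tested.

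The counts moved with single libraries. The share of all genes called in each of these fits was not counted beside them. A shift of the linked genes therefore cannot be told apart from a shift of the whole table. Without WT replicate 1 there were 4 higher and 8 lower linked genes, and without WT replicate 2 there were 3 and 7. Without cKO replicate 1 there were 55 and 62, and without cKO replicate 2 there were 15 and 43. Of the 19 genes named here by rule and called at P21, Arid1a included, 9 were called without WT replicate 1 and 8 without WT replicate 2. Cpe, Dusp1, Fam160a1, Lncppara, Mbp, Pcdhga5, Phyhd1 and Timm44 missed the threshold without either of the WT libraries, whereas Arid1a, Cirbp, Dnajb5, Hif3a, Hivep3 and Myo1d passed it in both fits. An alternative added after the data were seen kept only peaks over 2 kb from both H3K4me3 and gene starts. It left 298 tested genes, with 4 higher (1.34%) and 14 lower (4.70%). Peaks of chromosome 18, which had no start distance, could not enter it. The called genes Mbp, Cxxc5, Nedd4l and Pcdhga5 (lower) and Pcdhga3 (higher) lie there, so these counts do not show an effect of distance alone.

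**Figure D4:**
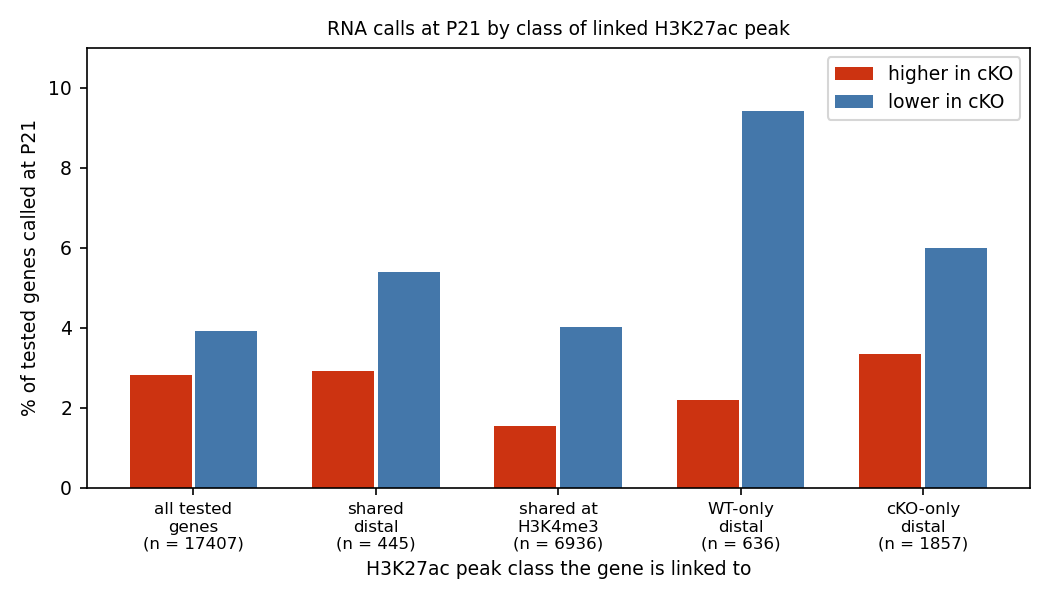
Percent of tested genes called higher (red) or lower (blue) in cKO at P21 by edgeR, for all genes and for genes linked to each class of H3K27ac peak; a gene can be in several classes, and n is the number of genes tested. Genes linked to shared distal peaks were lower in 5.39%, all genes in 3.91% and genes of WT-only distal peaks in 9.43%.

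The 13 linked genes higher in cKO at P21 included a hypoxia-related factor and a cold-inducible one. Hif3a, a member of the hypoxia-inducible factor family, had 2 peaks (chr7:17058437-17058736 and chr7:17060445-17060659) and was at 17.9 and 20.8 CPM in WT and 61.0 and 50.05 in cKO (log2 change 1.52, SE 0.14, edgeR adjusted p = 0.00250). Cirbp, the cold-inducible RNA-binding protein, was at 30.6 and 28.8 in WT and 65.3 and 69.3 in cKO (log2 change 1.18, SE 0.11, edgeR adjusted p = 0.00229). Its peak at chr10:80172319-80172559 had an H3K27ac fold of 4.88 in WT and 7.48 in cKO and lay 143 bp from H3K4me3. The 2 genotypes did not overlap for either gene.

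Phyhd1, a dioxygenase whose upstream window is printed above, was at 8.06 and 8.93 CPM in WT and 15.5 and 14.1 in cKO (log2 change 0.80, SE 0.16, edgeR adjusted p = 0.0280). Its peak had a fold of 5.58 in WT and 8.56 in cKO and a pileup of 21.3 and 24.7. Cpe, the carboxypeptidase that trims prohormones, was at 1820 and 1854 in WT and 2877 and 3060 in cKO (log2 change 0.69, SE 0.11, edgeR adjusted p = 0.0121). Fkbp5, a co-chaperone of the glucocorticoid receptor induced by glucocorticoids, was at 61.0 and 66.8 in WT and 96.3 and 112 in cKO (log2 change 0.71, SE 0.12, edgeR adjusted p = 0.0172). The mitochondrial import gene Timm44 changed by 0.62 and the lncRNA gene Lncppara, with 3 peaks, by 0.83 on the log2 scale.

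The set of 24 linked genes lower in cKO held a BAF subunit, a myelin gene and neuronal genes. Dpf3, a PHD-finger subunit of neuronal BAF, was at 11.8 and 13.1 CPM in WT and 5.74 and 3.46 in cKO (log2 change -1.43, SE 0.25, edgeR adjusted p = 0.0197). Its peak at chr12:83341838-83342186, far inside the gene, had an H3K27ac fold of 4.67 in WT and 6.03 in cKO. Myo1d, an unconventional myosin, was at 15.9 and 13.7 in WT and 7.18 and 5.92 in cKO (log2 change -1.18, SE 0.18, edgeR adjusted p = 0.0123). Its 4 peaks had WT folds of 3.35, 5.04, 8.87 and 7.42 and cKO folds of 5.50, 5.29, 6.65 and 4.05 in order along the chromosome.

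Dnajb5, a DnaJ-type co-chaperone, was at 232 and 243 CPM in WT and 103 and 131 in cKO (log2 change -1.03, SE 0.13, edgeR adjusted p = 0.00730). Hivep3, a zinc-finger transcription factor, was at 92.5 and 101 in WT and 53.9 and 47.8 in cKO (log2 change -0.93, SE 0.11, edgeR adjusted p = 0.00594). Tuba1a, the alpha-tubulin of growing neurons, was at 1014 and 909.6 in WT and 543 and 609 in cKO (log2 change -0.74, SE 0.12, edgeR adjusted p = 0.0136). Stra6, the retinol-uptake receptor, changed by -1.12 and Fam160a1 by -1.18 on the log2 scale. Stra6 overlaps Ccdc33, which was called higher at 0.351 to 2.01 CPM, and 1 peak is linked to both; use of strand in counting was not given in the sources used here, so their split is uncertain. The same holds for Pcdhga3 (higher) and Pcdhga5 (lower), protocadherins that share exons and 1 linked peak.

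The 11 genes with 5 peaks each were varied in kind. Cyfip1, a regulator of translation and actin, had medians of 4.66 in WT and 5.71 in cKO. Cyth1, an exchange factor for ARF GTPases, had 4.83 and 5.22 with all 5 folds higher in cKO, and Trak1, an adaptor for mitochondrial transport, had 4.87 and 5.23. Mical2, an actin-oxidising enzyme, had 4.60 and 5.18. Folds were lower in cKO for 3 of 5 peaks of Myt1l, a zinc-finger factor of neurons (4.87 and 5.39), of Tbc1d22a (5.97 and 5.39) and of Irf2bpl (5.59 and 6.05). Myt1l RNA was at 175 and 214 CPM in WT and 142 and 156 in cKO (log2 change -0.38, SE 0.13, edgeR adjusted p = 0.116).

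Among the 69 genes with 3 or more peaks, 66 were tested and 5 were called by edgeR (7.58%), against 6.72% of all genes tested. Lncppara was higher, and Myo1d, Gse1, Zeb2 and Cxxc5 were lower. Gse1, with 5 peaks, was at 176 and 152 CPM in WT and 108 and 106 in cKO (log2 change -0.61, SE 0.11, edgeR adjusted p = 0.0224). All 5 of its peaks had a higher fold in cKO, with medians of 3.91 and 5.22. Zeb2, a zinc-finger repressor of neuronal and glial development, changed by -0.60 with 4 peaks whose median ratio was 0.980, and the CXXC-domain gene Cxxc5 by -0.54 with 3 peaks and a median ratio of 1.33; Gse1, Zeb2 and Cxxc5 were singled out after their values were seen.

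H3K27ac values at the peaks of called genes are given here by the direction of the RNA change, as a description. The 17 peaks of genes higher in cKO had a median fold ratio of 1.256, with 14 above 1, and a pileup ratio of 1.16. The 40 peaks of genes lower in cKO had 1.07, with 25 above 1, and a pileup ratio of 0.994. The 671 peaks of tested genes that were not called had 1.15 and 0.964. All 3 medians of the fold ratio were above 1, whereas the pileup median was above 1 for the higher genes and just below 1 for the lower genes. A peak linked to genes of several sets counts in each. The peak of Pcdhga3 and Pcdhga5 (fold ratio 1.33) and that of Stra6 and Ccdc33 (0.915) are thus in both the higher and the lower set. These values carry no test.

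**Figure D5:**
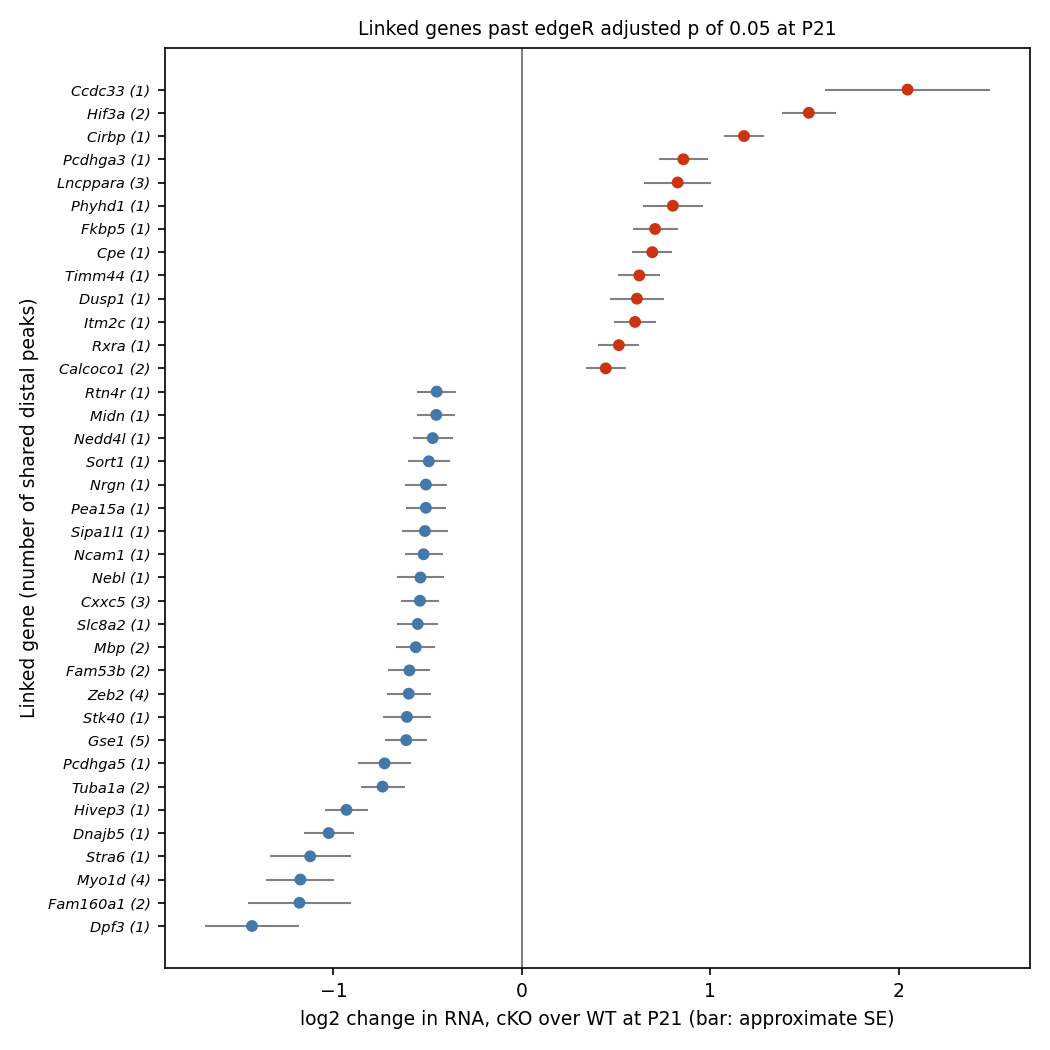
Log2 change in RNA, cKO over WT, at P21 for the 37 linked genes past an edgeR adjusted p of 0.05, with the approximate standard error as a bar and the number of shared distal peaks in brackets. The 13 higher genes (red) run up to 2.05 for Ccdc33 and the 24 lower genes (blue) down to -1.43 for Dpf3.

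The 14 lists of cell type markers and chromatin genes held 200 genes, of which 18 (9%) had a shared distal peak, against 2.34% of all named genes. With 9 to 22 genes per list, 8 of the lists had none, among them those of dentate granule neurons, CA pyramidal neurons, GABAergic interneurons, microglia and endothelium. The forebrain glutamatergic neuron list had 7 of 20, among them Camk2a, Grin2b, Gria1, Gria2, Nrgn and Neurod2. Of these 7, 1 was lower at P21 and none higher by edgeR, against 3.91% and 2.81% of all genes. Nrgn, a postsynaptic calmodulin-binding protein, was at 1395 and 1426 CPM in WT and 925 and 1057 in cKO (log2 change -0.51, SE 0.11, edgeR adjusted p = 0.0402). Its peak, 23931 bp from the gene and 38 bp from an H3K4me3 peak, had an H3K27ac fold of 6.06 in WT and 4.05 in cKO.

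The 3 glutamate receptor genes of this list had 1 peak each. In Gria1 its fold was 6.82 in WT and 4.99 in cKO, with a pileup of 19.5 and 19.0. In Gria2 the fold was 6.51 and 5.29 and the pileup 18.53 and 14.2, and in Grin2b the fold was 5.21 and 4.28 and the pileup 15.8 and 16.1. Grik5, a kainate receptor gene outside the list and added after its values were seen, had 1 peak with a fold of 4.23 and 7.61 and a pileup of 13.9 and 21.8. Camk2a, the kinase of synaptic plasticity, had 4.42 and 5.29 and was at 7655 and 7031 CPM in WT and 6831 and 7633 in cKO. Its RNA overlapped between genotypes.

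The BAF subunit list had 7 of 22 genes with 14 peaks in all, and 1 of the 7, Dpf3, was lower and none higher, against 3.91% and 2.81% of all genes. Of all 22 genes of the list 3 were lower. Arid1b, the paralog of Arid1a, had 5 peaks in the last part of the gene, between chr17:5261468 and chr17:5312126, all with a higher fold in cKO (medians 4.60 and 6.34). Its RNA was at 112 and 127 CPM in WT and 113 and 118 in cKO (log2 change -0.05, SE 0.11, edgeR adjusted p = 0.835). Dpf1 had 3 peaks and was at 64.4 and 58.5 in WT and 48.6 and 53.3 in cKO (log2 change -0.27, SE 0.11, edgeR adjusted p = 0.178). Smarcd2 had 2 peaks, and Smarca2, Smarcd1 and Bcl7b 1 each.

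Of glial and other lists, Mbp, the major myelin protein, had 2 peaks, one with a fold of 4.65 in WT and 5.87 in cKO and the other with 4.95 and 4.63. Mbp RNA was at 3579 and 3603 CPM in WT and 2445 and 2417 in cKO (log2 change -0.56, SE 0.10, edgeR adjusted p = 0.0228). In the oligodendrocyte list as a whole, 12 of 16 genes were lower and none higher, against 3.91% and 2.81% of all genes. The list averaged 7.25 and 7.29 log2 CPM in the WT libraries against 6.40 and 6.30 in cKO. The part of that shift in the Mbp value was not tested. Gfap, the astrocyte filament protein, had 1 peak (3.54 and 3.57) and overlapped between genotypes. Of the 15 genes of the astrocyte list, 3 were higher and 4 lower. Dusp1, a phosphatase among the immediate early genes, had 1 peak (5.36 and 8.59). Its RNA was higher, at 21.1 and 26.7 in WT and 35.4 and 37.7 in cKO (log2 change 0.61, SE 0.14, edgeR adjusted p = 0.0459). Of the 18 genes of its list, 11 were lower and 1, Dusp1 itself, higher.

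Hippocampal markers were present in every P21 library. The CA pyramidal neuron list averaged 5.57 and 5.34 log2 CPM in WT and 5.48 and 5.81 in cKO, with 4 of 13 genes higher and 1 lower. The dentate granule neuron list averaged 5.61 and 5.72 in WT and 4.80 and 4.39 in cKO, with 8 of 13 genes lower. Of all genes tested, 2.81% were higher and 3.91% lower. The striatal neuron list, 3 of 11 genes higher, averaged 2.83 and 2.91 log2 CPM in the WT libraries against 3.47 and 4.11 in cKO. The choroid plexus and ependyma list, 2 of 10 higher, had 3.78 and 3.63 in WT and 4.58 and 3.66 in cKO. Kl was the sole gene of these lists with a shared distal peak, 46438 bp away. The microglia list was at 4.36 and 4.18 in WT and 3.56 and 3.44 in cKO with 6 of 13 lower. The part of these shifts in the linked genes' calls was not tested.

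At E16.5, when no ChIP-seq was done, 440 of the linked genes were tested. By edgeR none was higher, against 0.0118% of all 16958 genes, and 1 was lower (0.227%), against 0.112%. At an unadjusted edgeR p under 0.05, 31 of the 440 were higher and 82 lower, against 1548 and 1951 of all 16958 genes. DESeq2 called 5 higher and 37 lower, with no share over all genes counted beside them. The gene called lower was Ksr1, a scaffold of the Ras to MAP kinase cascade, at 40.8, 41.5 and 41.1 CPM in WT and 25.8, 25.2 and 26.1 in cKO (log2 change -0.68, SE 0.06, edgeR adjusted p = 0.0316). Without any 1 of the 6 libraries no linked gene was called. Its peak at chr11:79095338-79095597 had an H3K27ac fold of 4.74 in WT and 5.62 in cKO at 3 weeks and lay 371 bp from H3K4me3.

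The difference between the cKO changes at P21 and E16.5 was tested in a fit of all 10 libraries. By edgeR 4 of 451 linked genes passed (0.887%), against 1.16% of all 18979 genes, so the share was near the background. They were Cirbp, Cpe, Dnajb5 and Fam53b, the last named because the count was small.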

How the data were processed

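The authors deposited narrow peak lists made with MACS 2.2.7.1 at a q limit of 0.01 from 50 bp tags, each library against the input of its genotype, with the larger library scaled to the smaller, per the file headers. The submitters' processing notes name MACS2 2.2.5 and Bowtie2 2.3.5.1 on GRCm38. The values per peak are, per the file headers, the summit pileup (a coverage signal), the fold enrichment (a ratio to the local input level) and the −log10 p and q-values. Since peaks were called per library, a peak present in 1 list only can be just under the limit in the other.

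RNA tables hold estimated counts deposited by the authors, from Salmon 1.0.0 per the submitters' processing notes; the summing to genes and any use of strand were not given in the sources used here. The authors' deposited tables of log2 changes, p-values and a mean-level score served here only for gene symbols.

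Overlaps were computed in Python 3.11.15 with pandas 2.3.3 (at least 1 bp). Gene spans and starts came from RefSeq tables of GRCm38.p6, matched to the RNA tables by symbol and then by gene ID (20243 genes). Counts were rounded, filtered with filterByExpr, TMM-normalised and fitted per age with edgeR 4.0.16 (robust quasi-likelihood F test, no covariates) in R 4.3.3. On simulated data with known changes, 36 of 179 calls were false at the size of the P21 comparison and 12 of 147 at that of E16.5. Both shares were above the nominal threshold. Of changes of 2-fold, 52% were recovered at the P21 size and 53% at the E16.5 size. P-values were adjusted over all genes of an age by the Benjamini-Hochberg method, with calls at 0.05. SE are approximate, from the log2 change and its F value. Groups came from the sample titles. Total counts were 17662335 to 20332148 per library, which sets the precision of low genes. Alternatives covered the overlap and link rules, DESeq2 1.42.0, scaling, the filter, the replicate block and leaving out each library.

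Members, lists and rules were chosen with earlier results of these data known. Named were the 10 peaks of highest fold in each genotype, the 5 with highest and lowest ratio, the 5 largest groups, the 10 genes with most peaks, the 8 highest and 8 lowest called genes at P21 with at least 5 CPM in the higher group and no overlap, and up to 3 genes per list. Other named genes were chosen after their values were seen. Model genes are not named. Sequences of the peaks themselves were not read, because no genome was used here.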

Additional observations from a re-analysis of the deposited data

Results flagged for a closer look

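The cKO change of 4 of 451 linked genes (0.887%, against 1.16% of all 18979 genes) differed between the ages by an interaction term fitted with edgeR. Beside Fam53b (-0.85, edgeR adjusted p = 0.0411) these were 3 genes named by rule. For Cirbp, the cold-inducible RNA-binding protein, the log2 change at P21 minus that at E16.5 was 1.01 (edgeR adjusted p = 0.0296), with 30.6 and 28.8 CPM in WT and 65.3 and 69.3 in cKO at P21 against 141, 149 and 148 in WT and 184, 149 and 147 in cKO at E16.5. For Cpe, the prohormone carboxypeptidase, it was 1.22 (edgeR adjusted p = 0.0301): levels at E16.5 were 441, 485 and 427 in WT and 267, 283 and 366 in cKO, below WT, whereas at P21 both cKO libraries were above. For Dnajb5, the DnaJ-type co-chaperone, it was -1.05 (edgeR adjusted p = 0.0280), with 159.8, 159.6 and 169.6 in WT and 168, 164 and 154 in cKO at E16.5. The labels give no batch or date, so a batch that goes with age cannot be told apart from age.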

How the results depend on the processing

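The number of shared distal peaks was 410 with a reciprocal overlap of at least 50% and 400 with both peaks at −log10 q of at least 5, and 648 to 765 under the other 3 rules. Their median cKO to WT ratio was 1.12 with the mean of the overlapping cKO peaks, 1.08 at −log10 q of at least 5 and 0.967 by summit pileup, which reversed its direction. Requiring the H3K27me3 peak to cover at least 50% left 3 of 6. Linked genes higher and lower at P21 (13 and 24) numbered 1 and 4 with at least 3 peaks, 4 and 14 over 2 kb from promoters (chosen after seeing the data), 6 and 8 in a fit of all 10 libraries and 23 and 53 with no filter; DESeq2 gave 18 and 48. Leaving out 1 library gave 3 to 55 higher and 7 to 62 lower, the lone library of an arm being assumed to vary like the others. At E16.5 (0 and 1) DESeq2 gave 5 higher and 37 lower, the fit of all libraries 9 lower, no filter 7 lower, and peaks over 2 kb from promoters 0 lower; leaving out any 1 library gave 0 lower. The set over 2 kb from promoters held no peak of chromosome 18 at either age. The shares of all genes called in the other fits were not counted beside these numbers. The cause was not tested for these differences. None of the 19 genes named by rule and called at P21 reversed its direction. Nor did Arid1a, the 1 gene named by rule and called at E16.5. Changes of sign in genes that were not called were not counted.

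Whether replicate numbers pair the samples cannot be told from these data. The correlation of same-numbered deviations was 0.0198 at P21 and -0.228, -0.0208 and -0.492 at E16.5. With 2 libraries per genotype, the P21 correlation of differently numbered samples is the same value with the other sign, -0.0198. With the replicate block the linked calls were 9 higher and 12 lower at P21, and 0 lower at E16.5. No share over all genes was counted beside them.

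With 1 ChIP-seq library per genotype the spread of the H3K27ac values is unknown.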
